A study of Arabidopsis thaliana with 14 samples.

Results

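Cold signalling in Arabidopsis thaliana was examined through 10 genes, namely the inducer gene ICE1 (AT3G26744), its antagonist HOS1 (AT2G39810), the C-repeat binding factor genes CBF1 (AT4G25490), CBF2 (AT4G25470) and CBF3 (AT4G25480), the calmodulin-binding activator genes CAMTA1 (AT5G09410), CAMTA2 (AT5G64220) and CAMTA3 (AT2G22300), and the cold-regulated target genes COR15A (AT2G42540) and COR47 (AT1G20440). They were taken by name from the 27444 nuclear protein-coding genes, by a rule that uses no measured value. The mark H3K36me3, histone H3 trimethylated at lysine 36, was mapped by chromatin immunoprecipitation and sequencing (ChIP-seq) in tissue enriched for the shoot apical meristem with young leaves, from the wild-type accession Col-0. Plants of both groups were grown in short days of 8 h light and 16 h dark for 5 weeks at 16 °C and were collected 5 to 6 h after lights on, with 0.5 g of tissue per sample. In the 16 °C group they had stayed at 16 °C, and in the 25 °C group they had been moved to 25 °C 1 day earlier. Each group had 4 H3K36me3 samples and 3 samples with an antibody against total H3. One of the H3K36me3 samples at 25 °C, replicate A, carries the H3 antibody in its antibody label and H3K36me3 in its title.

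Each temperature is represented by a single list of marked regions for which its replicates were pooled, with 50167 nuclear regions at 16 °C and 52432 at 25 °C. No value of a single sample was at hand, so no difference between the temperatures below has a replicate check, no test was possible and the depth per sample is unknown. A region's height is its highest read coverage after the normalization of the calling tool, and was at least 179.4 in the 16 °C list and 179.3 in the 25 °C list. The organelles took more of the signal at 16 °C, so that the nuclear share of the signal was 63.1% at 16 °C and 72.0% at 25 °C, a ratio of 1.14. Leaving out the 25 °C regions that fell below the lowest 16 °C height once divided by this ratio turned the sign of no difference in the 10 genes. This step dropped whole regions and left the widths of the others as they were, so it cannot show how the ratio bears on region widths. Of the tissue markers, 3 of 5 meristem genes, 3 of 3 leaf genes and 2 of 3 root genes overlapped a region at 16 °C, against 1, 2 and 1 at 25 °C. Over all protein-coding genes the share was 56.0% at 16 °C and 59.5% at 25 °C. The meristem genes with a region (STM, KNAT1 and CUC2 at 16 °C, WUS at 25 °C) had regions of 70 to 100 bp, and CLV3 and PLT1 had none. The widest region of any marker was 820 bp, in the root gene SCR at 25 °C, so these markers do not identify the tissue. In such bulk tissue fewer cells with the mark and less mark per cell cannot be told apart.

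As background, cold acclimation in Arabidopsis runs through a short transcriptional cascade. ICE1, a basic helix-loop-helix factor present before the cold, activates CBF genes when the temperature drops, and HOS1, a RING-type E3 ubiquitin ligase, directs the breakdown of ICE1. CAMTA factors link calcium signals to the same CBF genes. The CBF proteins are AP2-type factors that are induced within a short time and switch on COR genes, whose products protect membranes and proteins during freezing. H3K36me3 is laid down along transcribed genes and in plants lies mainly in their first part, and it is common in genes that are in steady use.

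The first coding bases of the CBF genes show how closely these tandem copies resemble each other. The capitals in the CBF lines mark the 11 of 60 positions at which the 3 genes do not all have the same base, and the capitals in the ICE1 line mark its start codon. The ICE1 stretch lay inside a region in both lists and the CBF stretches lay in none. All are given 5′ to 3′ on the gene's strand, the minus strand of TAIR10.1 (RefSeq), from chr3:9834731-9834790 for ICE1, chr4:13022503-13022562 for CBF1, chr4:13016027-13016086 for CBF2 and chr4:13018944-13019003 for CBF3.
ICE1: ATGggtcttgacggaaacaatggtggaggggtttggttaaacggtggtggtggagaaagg
CBF1: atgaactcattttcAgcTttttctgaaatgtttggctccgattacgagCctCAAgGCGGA
CBF2: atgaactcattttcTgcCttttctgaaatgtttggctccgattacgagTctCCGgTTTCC
CBF3: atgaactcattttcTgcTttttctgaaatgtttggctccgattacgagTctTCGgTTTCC

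The 10 genes fell into 5 that carried H3K36me3 regions in both lists and 5 that carried none in either. Marked means here that 1 bp or more of the gene body lay in a region. ICE1, HOS1, CAMTA1, CAMTA2 and CAMTA3, which act before the CBF genes, were marked at both temperatures, whereas CBF1, CBF2, CBF3, COR15A and COR47 had no region at 16 °C and none at 25 °C. The count of marked genes was 5 of 10 at 16 °C, beside 56.0% of all protein-coding genes, and 5 of 10 at 25 °C, beside 59.5%. As a share, 5 of 10 is near these backgrounds, and what the lists show is which genes had regions and which had none. The marked genes were longer, with bodies of 2613 to 6654 bp and 5 to 16 exons, against 986 to 2465 bp and 1 to 4 exons in the unmarked genes. Each of the 8 other ways of choosing regions, bodies or marked genes gave the same counts of 5 and 5.

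**Figure D1:**
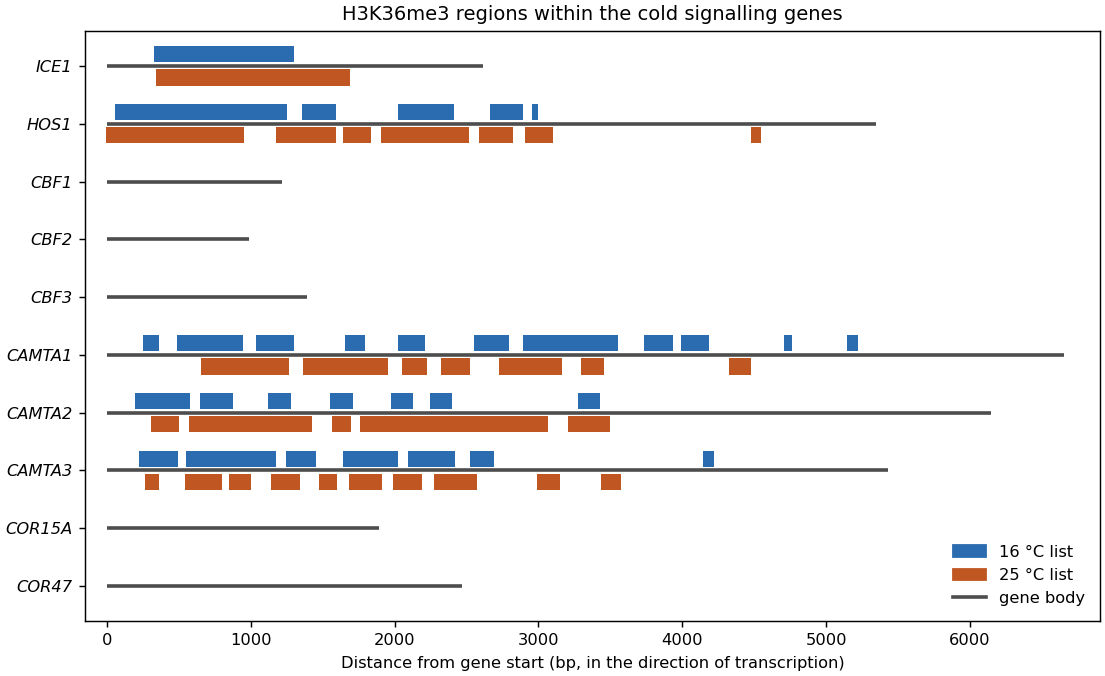
H3K36me3 regions in the 10 genes, drawn from the gene start (x axis, bp in the direction of transcription), with the 16 °C list above each gene body and the 25 °C list below it. ICE1, HOS1 and the CAMTA genes hold 31 regions at 16 °C and 30 at 25 °C, with few in the last part of the gene, and the CBF and COR genes hold none.

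Between the lists, the share of the gene body that lies inside regions (the covered percent) was larger at 25 °C for 3 of the 10 genes (ICE1, HOS1 and CAMTA2) and smaller for 2 (CAMTA1 and CAMTA3). Over all protein-coding genes the covered percent was larger at 25 °C for 47.3% and smaller for 17.2%. The median difference over the 10 genes, 25 °C minus 16 °C here and below, was 0 percentage points, as it was over all genes, and among the 5 marked genes it was 10.9 points, beside 7.83 points over all 13775 genes marked in both lists. To take length into account, each gene was also set beside the protein-coding genes whose length was within 20% of its own and which likewise had introns or lacked them. Of the genes set beside ICE1, 71.4% had a region at 16 °C. The share was 85.6% for HOS1, 90.2% for CAMTA1, 89.1% for CAMTA2 and 86.0% for CAMTA3. A region was thus usual among genes of the length of these 5.

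**Figure D2:**
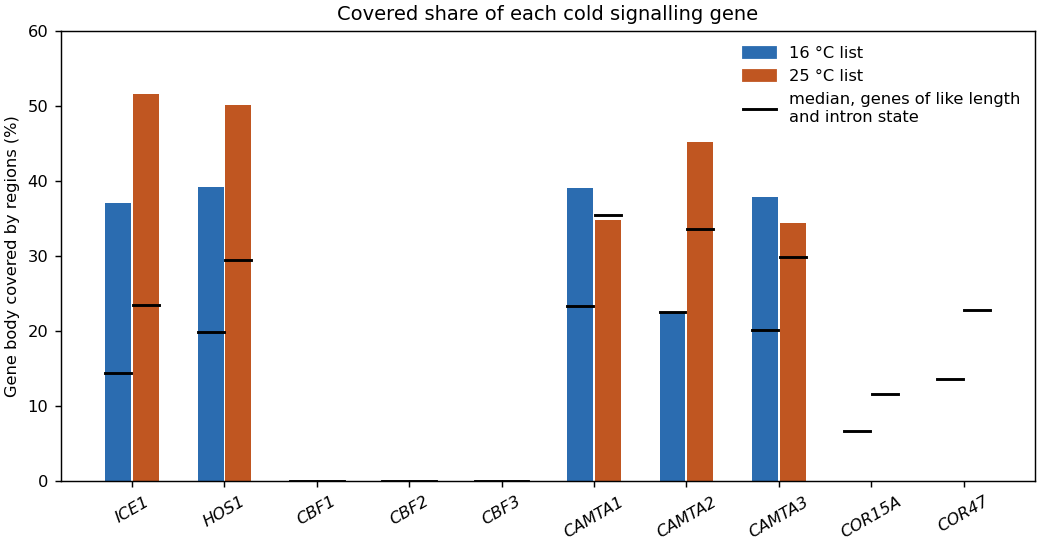
Covered percent of the gene body (y axis) in the 16 °C and 25 °C lists for each of the 10 genes (bars), with the median of genes of like length and intron state (black lines). ICE1, HOS1 and CAMTA3 stand above these medians in both lists, CAMTA1 stands above at 16 °C and just below at 25 °C, and the CBF and COR genes have bars at 0.

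ICE1 carried 1 broad region in each list. The gene lies on the minus strand of chromosome 3, chr3:9832667-9835279, with a body of 2613 bp. At 16 °C the region spanned chr3:9833981-9834950, was 970 bp wide and reached a height of 613. At 25 °C it spanned chr3:9833591-9834940, was 1350 bp wide and reached 708.7. Both regions began some 330 to 340 bp after the gene start, so the difference in width lay at their far end, 1298 bp after the start at 16 °C and 1688 bp at 25 °C. Regions covered 37.1% of the body at 16 °C and 51.7% of it at 25 °C, more than in 84.2% and 91.3% of the 6765 genes of like length with introns. The difference of 14.5 points was larger than that of 80.2% of these genes, whose median was 2.92 points. Within the first 1000 bp the cover of ICE1 was 67.1% at 16 °C and 66.1% at 25 °C, so the difference there had the opposite sign. It came only from where the region began, 329 bp after the gene start at 16 °C and 339 bp at 25 °C, and is too small to read as a reversal. Nearly all of the bases covered at 16 °C (99.0%) were covered at 25 °C too.

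HOS1, on the plus strand of chromosome 2 (chr2:16612777-16618122, 5346 bp), carried 5 regions at 16 °C and 7 at 25 °C. Its widest region at 16 °C covered 1200 bp from near the gene start and had a height of 440.7. At 25 °C the corresponding region was narrower, 960 bp, and taller, 721.4. The ratio of the tallest heights, 1.64 at 25 °C over 16 °C, was larger than that of 85.5% of genes marked in both lists, whose median ratio was 1.19. In all, 39.3% of the body was covered at 16 °C and 50.2% of it at 25 °C, a difference of 10.9 points beside a median of 5.92 points over 1967 genes of like length. In the first 1000 bp it was 94.6% and 95.4%, so this part was almost wholly covered at both temperatures. When the body was divided into 3 parts of equal length, the middle part was covered by 37.0% in the 16 °C list and by 61.8% in the 25 °C list. A narrow region of 70 bp and height 199.3, centred 4508 bp after the gene start, stood apart from the others and was in the 25 °C list alone.

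CAMTA2 (chr5:25686193-25692339, plus strand, 6147 bp) lay inside regions over 22.4% of its length at 16 °C and 45.2% at 25 °C. The difference of 22.8 points was larger than that of 94.0% of 1330 genes of like length, whose median was 7.84 points. At 16 °C its cover consisted of 7 separate regions of 150 to 380 bp. At 25 °C there were 5, of which one of 1310 bp ran over the place of 2 of the 16 °C regions. One of 860 bp overlapped 3, of which it held 2 whole and touched only the end of the first. The heights went the other way, with a tallest region of 769.8 at 16 °C and 579.2 at 25 °C, and this ratio of 0.752 was larger than that of 6.32% of genes marked in both lists. In the first 1000 bp the cover was 61.0% and 62.2%. A further region of 140 bp lay 203 bp before the gene start, outside any annotated gene, in the 25 °C list alone.

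The 16 °C region of CAMTA2 with the height of 769.8 had the greatest height among the 61 regions of the 10 genes and stood above 97.9% of the nuclear regions of its list. It is shown because it lies across the end of an exon and the following intron, with the 61 coding bases in capitals, as read from the plus strand of TAIR10.1 (RefSeq) at chr5:25686841-25687070.
CAMTA2: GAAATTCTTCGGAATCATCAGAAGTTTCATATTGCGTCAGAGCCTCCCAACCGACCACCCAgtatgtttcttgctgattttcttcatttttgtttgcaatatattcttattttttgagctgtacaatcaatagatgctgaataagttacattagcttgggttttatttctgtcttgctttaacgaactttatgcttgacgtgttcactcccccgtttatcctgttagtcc

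CAMTA1 (chr5:2920827-2927480, plus strand, 6654 bp) was the longest of the 10 genes and carried 11 regions at 16 °C and 7 at 25 °C. Its cover was 39.1% in the 16 °C list and 34.9% in the 25 °C list, a difference of -4.21 points. Of 1035 genes of like length, 2.51% had a lower difference, and their median was 8.97 points. The 16 °C regions were 60 to 660 bp wide with heights of 197.3 to 437.5, and the 25 °C regions were 150 to 610 bp wide with heights of 252.5 to 498. Of the 16 °C regions, 5 had no 25 °C region over them, namely one near the gene start and the last 4 of the gene. In the first 1000 bp the cover was 57.0% at 16 °C and 34.6% at 25 °C. The whole first part, of 3 parts of equal length, went the other way, with 52.8% at 16 °C and 61.5% at 25 °C. The middle part had 58.2% and 41.4%, and the last part 6.31% and 1.71%. When only the 50% of regions with the larger −log10 p were kept in each list, the difference turned to 1.95 points.

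CAMTA3 (chr2:9471219-9476646, plus strand, 5428 bp), whose product binds the CBF2 promoter, carried 7 regions at 16 °C and 10 at 25 °C. Its cover was 38.0% in the 16 °C list and 34.5% in the 25 °C list, a difference of -3.50 points, and 5.05% of 1882 genes of like length had a lower difference beside a median of 6.20 points. At 25 °C the cover was broken into narrower pieces, with a median width of 180 bp against 270 bp at 16 °C, and no region was wider than 300 bp against 620 bp. In the first 1000 bp the cover was 71.8% at 16 °C and 50.8% at 25 °C. The difference kept its sign under all 7 alternatives, from -21.0 points in the first 1000 bp to -2.03 points without regions under 100 bp. The 69 last bases of CAMTA3 lie over the gene AT2G22310, and no region was there.

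The tallest CAMTA3 region that had no counterpart at 16 °C was 160 bp wide with a height of 483.3, and its 160 bases were all coding. It is printed from the plus strand of TAIR10.1 (RefSeq), chr2:9474211-9474370, with coding bases in capitals.
CAMTA3: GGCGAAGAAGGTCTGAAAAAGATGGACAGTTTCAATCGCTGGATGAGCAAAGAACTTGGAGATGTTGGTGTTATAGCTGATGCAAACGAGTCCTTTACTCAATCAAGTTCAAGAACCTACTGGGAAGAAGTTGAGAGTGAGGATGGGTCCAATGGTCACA

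**Figure D3:**
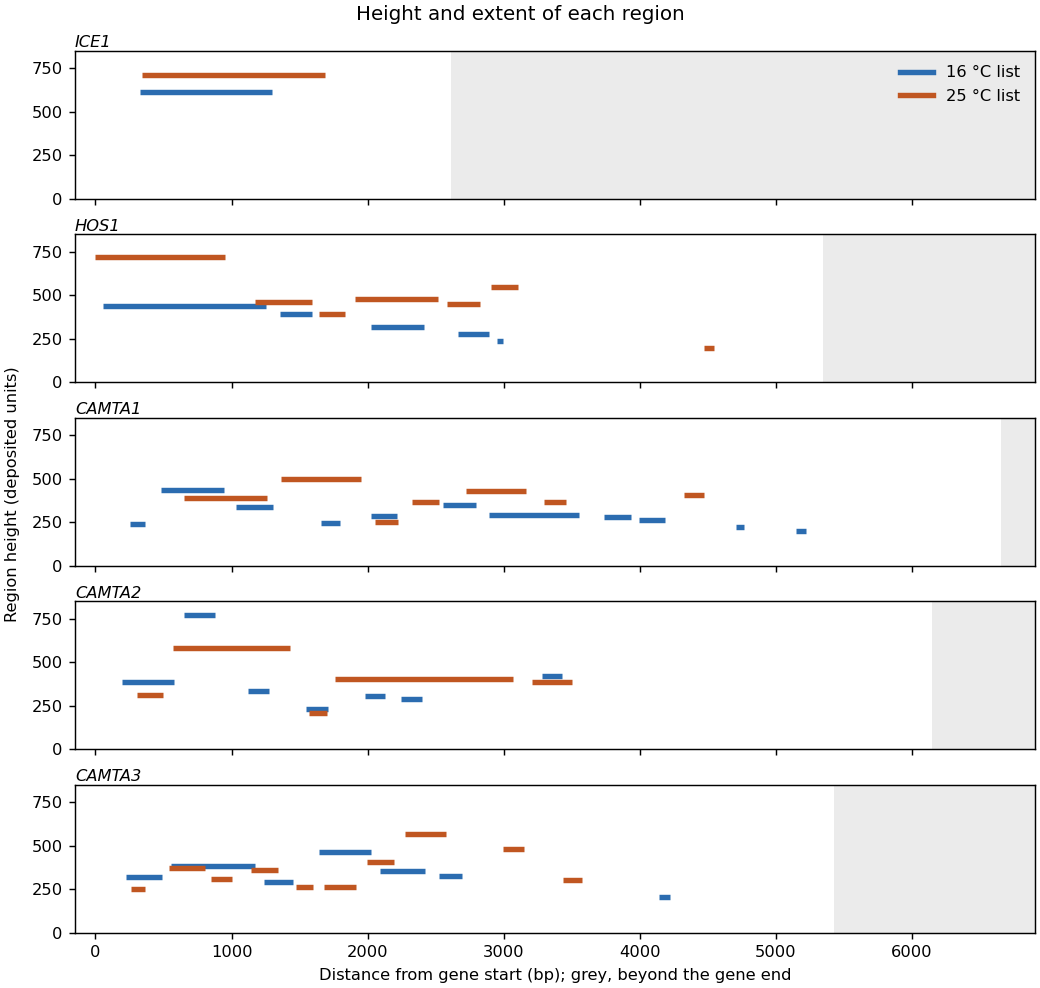
Height (y axis, deposited units of coverage) and extent (x axis, bp from the gene start) of each region in the 5 marked genes, with the 16 °C and 25 °C lists in separate colours. HOS1 regions are taller at 25 °C than the 16 °C regions at the same place, and the 16 °C region of CAMTA2 at 769.8 is the tallest drawn.

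Within the 5 marked genes the mark lay mainly in the first and middle parts of the body, taken as 3 parts of equal length. The last part was covered by 0% at 16 °C in ICE1, HOS1 and CAMTA2, by 4.42% in CAMTA3 and by 6.31% in CAMTA1. At 25 °C it was covered by 3.93% in HOS1, by 1.71% in CAMTA1 and by 0% in the other 3. Over all genes marked in both lists the mean cover of the last part was 5.70% at 16 °C and 7.74% at 25 °C, against 48.8% and 59.7% in the first part. CAMTA3 had less cover of the first part at 25 °C than at 16 °C, 53.5% against 70.0%. ICE1 had nearly the same, 61.1% against 62.2%. Of the 31 member regions at 16 °C, 14 were centred in coding sequence, 15 in introns and 2 in a 5′ UTR. Of the 30 at 25 °C, 16 were centred in coding sequence, 12 in introns and 2 in a 5′ UTR.

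The bases covered in both lists were counted for each gene. Of the bases covered at 16 °C, 86.2% were covered at 25 °C in HOS1 and 84.8% in CAMTA2, against 57.8% in CAMTA3 and 50.8% in CAMTA1, beside a median of 70.4% over the 13775 genes marked in both lists. Of the bases covered at 25 °C, 67.4% had been covered at 16 °C in HOS1, 63.6% in CAMTA3, 56.9% in CAMTA1 and 42.1% in CAMTA2, beside a median of 50%. Both shares divide the same shared bases, so within a gene the share is lower for the list with more cover. Which share is larger thus only repeats the sign of the difference in cover. CAMTA2, with the largest difference in cover of the 10 genes, was above the median by the first share and below it by the second. CAMTA1 and CAMTA3 were below the median by the first share and above it by the second. They differed between the lists more in where the cover lay than in how much there was. In CAMTA1, 2600 bp were covered at 16 °C and 2320 bp at 25 °C, of which 1320 bp were shared. In CAMTA3 these were 2060 bp, 1870 bp and 1190 bp. In all, 25 of 31 member regions at 16 °C were overlapped by a region of the other list, and 23 of 30 at 25 °C. The same share over all nuclear regions was not computed. These counts, and those of single genes, therefore cannot be called high or low.

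CBF1, CBF2 and CBF3, the hub of the cascade, had no region. They stand in tandem without introns on the minus strand, CBF2 at chr4:13015250-13016235, CBF3 at chr4:13018010-13019400 and CBF1 at chr4:13021780-13022996. The whole stretch from CBF2 to CBF1, 7747 bp with 6 annotated genes, lay within a gap between regions that measured 10580 bp in the 16 °C list and 10760 bp in the 25 °C list. Such gaps were not rare, since those at least as long held 35.0% of the nuclear bases at 16 °C and 31.5% at 25 °C. The nearest region was 1170 bp from CBF2 at 16 °C and 1240 bp at 25 °C, inside the neighbouring transporter gene ABCB28. Among 1277 intronless genes within 20% of the length of CBF2, 20.3% had a region at 16 °C, 24.4% had one at 25 °C and 68.8% had no region in either list. For the genes set beside CBF1 and CBF3 the share with no region in either list was 61.7% and 56.1%.

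The coding sequences of the CBF genes were 85.0% to 86.7% identical in pairs. Of windows of 50 bases, the length of the reads, 2.48% of those in CBF1, 3.95% in CBF2 and 0.596% in CBF3 occurred again exactly in the nuclear genome, and 0% in the other 7 genes. The methods give Bowtie with default parameters for the mapping and add nothing on reads with several matches, whose part in the absence of CBF regions was not tested.

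The COR genes lacked regions as well. COR15A, which encodes a stromal protein that protects chloroplast membranes, lies at chr2:17710441-17712330 on the minus strand with a body of 1890 bp. It stood in a gap between regions that measured 10700 bp in the 16 °C list and 14500 bp in the 25 °C list. Of 5910 genes of its length with introns, 58.9% had a region at 16 °C, 63.4% had one at 25 °C and 30.5% had no region in either list. COR47, a dehydrin gene at chr1:7084409-7086873 on the minus strand, has a body of 2465 bp, and 20.9% of 6830 genes of like length with introns had no region in either list. Its neighbours were close and marked, with a region 469 bp beyond the gene end at 16 °C and 409 bp beyond it at 25 °C. On the upstream side a 25 °C region of 60 bp lay 718 bp from the gene start and a 16 °C region of 110 bp in ERD10, another dehydrin gene, lay 1028 bp away.

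Elements bound by factors of the cascade were searched in the 500 bp before the first coding base, on both strands. This window can lie after the annotated gene start, so a site in it need not be in the promoter. The COR47 sites and the near COR15A site lie inside the annotated gene body. The core of the C-repeat or dehydration-responsive element bound by CBF proteins, CCGAC, was found in this window of 23.4% of 27443 protein-coding genes. Among the 10 genes it was found in COR15A (2 sites), COR47 (1), HOS1 (4) and CAMTA1 (1). The CM2 element, CCGCGT, to which CAMTA3 is known to bind, was found in 3.48% of genes and among the 10 in CBF2 and COR47, with 1 site each. The windows of the CBF and COR genes held no base of any region, and neither did that of CAMTA1, a marked gene. The sites of the CBF and COR genes are shown with 10 bases on each side, the element in capitals, 5′ to 3′ on the gene's strand (minus strand, TAIR10.1, RefSeq). They come in this order from chr4:13016295-13016320, chr2:17712395-17712419, chr2:17712218-17712242, chr1:7085918-7085942 and chr1:7085817-7085842.
CBF2, CM2: gacagaaactCCGCGTtcgaccccac
COR15A, far site: aacttgttggCCGACatacatttgt
COR15A, near site: aatttcatggCCGACctgctttttt
COR47, CCGAC: tattcatctaCCGACttcaagaaat
COR47, CM2: agcgttacctCCGCGTtggcctggac

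The split seen in the 10 genes was also looked for in 48 other genes of the cold pathway, listed with earlier results of these data known. Of these, 38 were marked at 16 °C (79.2%, beside 56.0% of all genes) and 36 at 25 °C (75.0%, beside 59.5%). They include many long genes, and length was not matched in this comparison. The covered percent was larger at 25 °C for 28 (58.3%, beside 47.3%) and smaller for 13 (27.1%, beside 17.2%), with a median difference of 4.40 points.

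Genes that act before the CBF genes were mostly marked. Of 19 other regulators of CBF genes, 18 had a region at 16 °C (94.7%, beside 56.0% of all genes). At 25 °C 17 had one (89.5%, beside 59.5%), while MYB15, a repressor of CBF genes, had no region in either list. All 7 kinase genes and all 3 further CAMTA genes were marked at both temperatures. Length was not matched in these counts. At 16 °C the share marked among genes of like length and intron state ran from 43.5%, for those set beside PUB26, to 95.1%, for those set beside SFR6. The highest mean cover was that of BZR1, a brassinosteroid-response factor, at 49.8% and 48.2%, SFR6, a Mediator subunit, at 44.5% and 55.9%, LOS4, an RNA helicase, at 48.6% and 51.0%, and CRLK1, a calcium-regulated receptor-like kinase, at 34.5% and 57.8%. CRLK1 was also among the 4 largest positive differences, with EBF1, an F-box gene that acts on EIN3 (11.4% and 37.7%), CRLK2 (14.9% and 39.0%) and the histone acetyltransferase gene GCN5 (34.1% and 56.7%). Among the 4 largest negative differences were HOS15, which takes part in histone deacetylation, with 42.4% at 16 °C and 32.7% at 25 °C, and the kinase gene MKK2, with 28.9% and 19.4%. PUB25, a ubiquitin ligase gene, was the one regulator with a region at 16 °C and none at 25 °C.

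The closest relatives of the 10 genes differed by family. ICE2, the paralog of ICE1, was covered over 31.5% at 16 °C and 31.9% at 25 °C, a difference of 0.426 points against 14.5 points in ICE1. The 3 further CAMTA genes all had more cover at 25 °C, as had 47.3% of all protein-coding genes. AT1G67310 had 33.6% at 16 °C and 55.6% at 25 °C, and its widest regions measured 420 and 2430 bp. CAMTA5 (AT4G16150) had 26.4% and 39.9%, and AT3G16940, annotated as a CAMTA gene without a number, had 14.1% and 23.3%. In this order, their differences were larger than those of 93.8%, 76.6% and 63.4% of genes of like length. The median differences of those genes were 5.39, 5.78 and 5.38 points. Of the CBF relatives, CBF4 had no region, DDF1 had one of 150 bp at 16 °C alone and DDF2 had one of 60 bp at 25 °C alone.

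Of 10 further cold-regulated targets, 5 had a region at 16 °C, beside 56.0% of all genes, and 5 had one at 25 °C, beside 59.5%, so that their share was near the background. In both lists 3 of them (COR413PM1, COR27 and AT4G33980) were marked, and 3 (RD29B, KIN1 and GOLS3) had no region. COR15B, beside COR15A, had one region of 120 bp at 25 °C and none at 16 °C. ERD10, beside COR47, had 2 regions at 16 °C, with 15.1% of its body covered, and none at 25 °C. The median cover of the 10 targets was 2.44% at 16 °C and 2.39% at 25 °C, against 30.5% and 37.7% for the 19 regulators of CBF genes. The targets are shorter, 1025 to 2949 bp against 1702 to 7957 bp, and this difference in cover was neither matched for length nor tested. Of 5 factors that act in parallel to the CBF genes, 3 had a region at 16 °C (60%, beside 56.0% of all genes) and 2 had one at 25 °C (40%, beside 59.5%). The heat shock factor gene HSFC1 had a single region of 180 bp at 16 °C alone. SFR2, which remodels chloroplast membrane lipids in freezing, was covered over 22.0% at 16 °C and 38.6% at 25 °C.

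**Figure D4:**
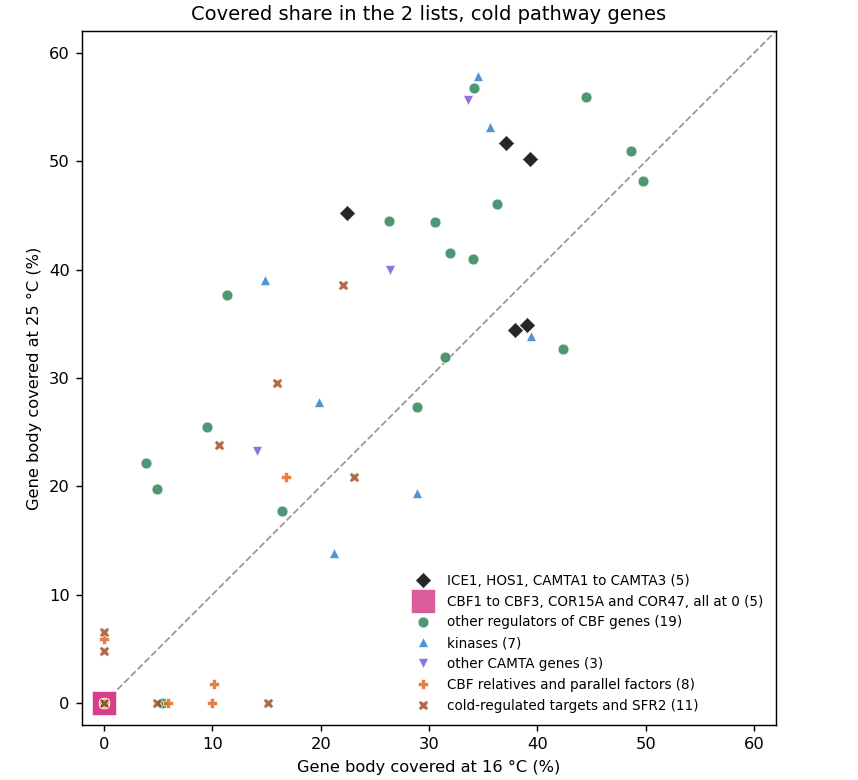
Covered percent of the gene body at 16 °C (x axis) and 25 °C (y axis) for the 10 genes and 48 other cold pathway genes, by role, with numbers of genes in the key and the line of equal cover dashed. Regulators and kinases are spread up to 57.8% and lie mostly above the line, and many targets, CBF relatives and parallel factors lie on or near the axes.

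The study also sequenced RNA of plants given the same change of temperature, and only membership of its gene lists was used here. COR15A is on its list of differentially expressed genes of day 1, when the chromatin was also collected, and on that of day 3, and none of the other members is on either. No member is on its list of wild-type genes spliced differently after the change. CAMTA1 is on its list of genes spliced differently at 16 °C between wild type and an H3K36 methyltransferase mutant, sdg8-2 or sdg26-1.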

How the data were processed

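The authors mapped 50 bp reads to TAIR10. Bowtie is named in the study's methods and Bowtie2 in the submitters' processing notes, without a version. The authors then ran Dpeak of DANPOS2 on reads extended to 150 bp, with the replicates of a temperature pooled. The methods and labels do not say whether the H3 libraries were used in the calling. The deposited heights are signal, the highest coverage in a region, and the deposited −log10 p-value belongs to that height. Each of the 862 whole-number heights found in both lists had the same −log10 p-value in both, so the lists were taken to be on 1 scale.

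Gene bodies came from RefSeq TAIR10.1, and no nuclear region ended beyond a chromosome of that build. Its bodies can be longer than those of TAIR10, and the span from the first to the last coding base was therefore tried as an alternative. Of 58 gene symbols used, 54 were in the annotation and the other 4 genes are given by locus or product name. Marked genes, covered percent and genes of like length (within 20%) were computed in Python 3.11.15 with numpy 2.4.6 and described without a test. The functions were tested on simulated regions. The share of the signal in organelles used a Poisson mean of 107.2 solved from the lowest −log10 p-value, times the genome length.

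The 10 genes, the 48 pathway genes and the alternatives were chosen with earlier results of these data known. Named pathway genes were the 4 with the highest mean cover, the 4 with the largest positive and the 4 with the largest negative difference in covered percent, genes marked in 1 list alone by a region over 150 bp, and relatives of members. Others named were chosen after their values were seen. Alternatives left out narrow, weak or surplus regions, rescaled the 25 °C heights, or changed the gene body or what counts as marked.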

Additional observations from a re-analysis of the deposited data

Results flagged for a closer look

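The chloroplast genome lies outside the gene comparisons and was called as a single region in each list, with 34.9% of all signal at 16 °C and 26.2% at 25 °C. It drew attention as signal outside the genes compared. It was used only in the nuclear shares, whose ratio of 1.14 served to rescale the 25 °C heights. Its width was 154350 bp in both lists.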

How the results depend on the processing

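No paired analysis was possible because the replicates of a temperature are pooled in its list, and for the same reason no replicate could be left out. With only the 50% of regions with the larger −log10 p, 1 of the 10 genes had less cover at 25 °C in place of 2, CAMTA1 turned from -4.21 to 1.95 points, and the median difference of the 48 pathway genes was 0.782 in place of 4.40 points. With only regions wider than 150 bp CAMTA1 was at -0.601 and CAMTA3 at -11.6 points, that median was 2.27 points, and 7 pathway genes in place of 13 had less cover at 25 °C. In the first 1000 bp of the body the difference of ICE1 was -1 points in place of 14.5, which reflects only a small shift in where its region began. In the alternatives run, all other signs of the 10 genes held and all other counts of the 10 and the 48 genes stayed within 1.5 times. Rescaling the 25 °C heights by the ratio of nuclear shares only dropped low regions and kept the widths of the others. Among the 10 genes it changed HOS1 alone, from 10.9 to 9.61 points. It turned no sign, but it could not test what the ratio does to region widths. Since the depth per sample is unknown, a gene without a region may still carry the mark below the calling level.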

Other observations

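The 10 other protein-coding genes that had a region within 1500 bp of a member were named after their values were seen, and all values here are over their whole bodies. The covered percent was larger at 25 °C in 6 of them, against 47.3% of all protein-coding genes. It was smaller in 3 (ERD10, eIF6B and AT5G64230), against 17.2%, and was 25.3% in both lists in ABCB28, beside CBF2. These genes were taken for having a region, so they are not like all genes in this respect. TOC64-V, after CAMTA1, had 5 regions at 16 °C and 2 at 25 °C, with widest regions of 300 and 1600 bp. AT1G20430, beside COR47, had 3 regions of up to 160 bp at 16 °C and 2 of up to 700 bp at 25 °C. AT2G39805, before HOS1, had 4 regions of up to 290 bp at 16 °C and 2 of up to 940 bp at 25 °C. In eIF6B, after HOS1, and AT5G64230, after CAMTA2, a single narrow region at 16 °C had no counterpart at 25 °C.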
